A study of Homo sapiens with 24 samples.

Results

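The genes described here were 9 genes of MHC class I antigen presentation, taken by their symbols from a table of 13033 gene symbols, and all 9 were in it. They were the heavy chains HLA-B, HLA-C, HLA-E and HLA-F, the light chain B2M, the peptide transporter subunits TAP1 and TAP2, the loading factor TAPBP (tapasin) and the transactivator NLRC5. Poly(A) RNA had been sequenced from 2 established human acute myeloid leukaemia lines after treatment with the solvent DMSO or with RMC-7977, an inhibitor of RAS proteins in their active, GTP-bound state, at 25 nM for 2 or 24 h. Molm-14 carries FLT3-ITD, an internal tandem duplication of the receptor kinase FLT3, and OCI-AML3 carries NRAS Q61L, both as given in the labels. Each line had 4 DMSO libraries with no stated time, which served both times, 4 libraries at 2 h and 4 at 24 h, except that 3 libraries of OCI-AML3 at 24 h were used. Each group is thus a single cell line grown alone, and the labels do not say whether its libraries are separate cultures. The p-values therefore weigh differences against library-to-library spread, which may be technical.

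MHC class I molecules carry short peptides from inside the cell to its surface, where T cells and natural killer cells read them. A heavy chain pairs with beta-2 microglobulin (B2M) in the endoplasmic reticulum. The transporter TAP, a heterodimer of TAP1 and TAP2, pumps peptides made by the proteasome into that compartment, and tapasin holds the empty heavy chain beside TAP while a peptide is chosen. HLA-B and HLA-C present peptides to T cells, HLA-E presents peptides from the leader sequences of other heavy chains to the NKG2A receptor of natural killer cells, and HLA-F is a rarely expressed class I chain. NLRC5 is the transactivator that joins the factors bound to class I promoters, and interferons induce most of these genes through sites of the interferon-stimulated type.

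Promoter sequences are shown first, since these windows hold motifs through which such genes are known to be controlled. The part of the motifs in the changes of the 9 genes was not tested. Of the 9 genes, 7 had a promoter entry in RefSeq (GRCh38.p14, 250 bases before to 50 after the start). HLA-E and NLRC5 had no entry. The 150 bases from 200 to 51 before the start are given for HLA-B (chr6:31357230-31357379, minus strand) and HLA-C (chr6:31272143-31272292, minus strand), which shared 134 of 150 bases (89.3%) in a gapped alignment of the windows. Capitals mark GGGG and TCCC separated by 2 bases (a kappa B type site), TGACGC (part of the X2 box) and CCAAT, on either strand, where CCAAT reads ATTGG on the opposite strand.
HLA-B: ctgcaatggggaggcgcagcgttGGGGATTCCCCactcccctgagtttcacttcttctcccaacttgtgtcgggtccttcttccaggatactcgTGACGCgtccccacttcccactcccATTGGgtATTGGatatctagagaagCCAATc
HLA-C: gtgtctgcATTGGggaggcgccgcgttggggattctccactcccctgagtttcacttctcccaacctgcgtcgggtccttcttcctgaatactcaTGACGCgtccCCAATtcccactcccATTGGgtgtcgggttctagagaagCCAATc
The kappa B type match was in HLA-B only among the 7 promoters and in 2.78% of all 35116 promoters of the same length. TGACGC was in 3 of the 7 (HLA-B, HLA-C and TAP2) and in 9.14% of all, and CCAAT was in 5 of the 7 and in 34.6% of all.

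The interferon-type motif, GAAA and GAAA separated by 2 bases, on either strand, was found in 5 of the 7 promoters and in 3.57% of all promoters. Windows of 30 bases around it are given for HLA-F (chr6:29723268-29723297, plus strand), B2M (chr15:44711366-44711395, plus strand), TAP1 (chr6:32853816-32853845, minus strand), TAP2 (chr6:32838778-32838807, minus strand) and TAPBP (chr6:33314076-33314105, minus strand). Capitals mark the match, which overlaps a further match in B2M, TAP1 and TAPBP.
HLA-F: ctccccagagTTTCTCTTTCtctcccaacc
B2M: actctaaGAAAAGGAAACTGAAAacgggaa
TAP1: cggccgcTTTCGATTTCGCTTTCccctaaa
TAP2: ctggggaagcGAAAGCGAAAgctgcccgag
TAPBP: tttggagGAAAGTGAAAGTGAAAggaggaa
Both transporter genes held this motif, TAP1 on the opposite strand and TAP2 on the sense strand. A match is a description of the letters and not a site of binding. The pattern allows no other letters, so its absence from HLA-B and HLA-C does not show that they lack a site of this type.

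Values are CPM, read counts scaled to the size of each library, and changes are log2 fold changes ± SE from limma with p-values adjusted over all 13033 genes. A gene is said to have risen or fallen at an adjusted p below 0.05 with a log2 fold change of at least 1 in size. At 24 h HLA-E rose and TAP2 fell in Molm-14, and in OCI-AML3 TAP1 and HLA-F rose and TAP2 fell. TAP2, 1 of the 2 subunits of the peptide transporter, was thus the gene of the 9 that fell in both lines, while its partner TAP1 was higher after 24 h in every library of both lines than in any DMSO library. Of the 9 genes, 1 was called higher and 1 lower in Molm-14 at 24 h, where 11.4% of all genes were called higher and 6.57% lower (17.9% in all). In OCI-AML3 at 24 h 2 were called higher and 1 lower, where 18.4% of all genes were called higher and 17.1% lower (35.4% in all). These counts are near those shares of all genes. With no minimum fold, 7 of the 9 passed the adjusted p as higher and 2 as lower in each line, against 37.7% and 38.6% of all genes in Molm-14 and 42.4% and 42% in OCI-AML3. In Molm-14 NLRC5 missed the adjusted p under both other scalings of the libraries (0.0909 and 0.113), and HLA-F missed it in 8 of its alternatives (up to 0.244).

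At 2 h limma called 0 of the 9 in either line, where 7.29% of all genes were called in Molm-14 and 6.58% in OCI-AML3. At an unadjusted p below 0.05, 3 of the 9 passed in Molm-14 and 9 in OCI-AML3, where 62.7% and 65.7% of all genes passed, and voom on recovered read equivalents also called 0 in each line. The median change of the 9 at 24 h was 0.28 in Molm-14 and 0.73 in OCI-AML3, with a median over all genes of 0 and 0.01. At 2 h the medians of the 9 were 0.05 and 0.13, against 0 and 0.02 over all genes. The comparisons of a line at 2 and 24 h share their DMSO libraries.

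**Figure D1:**
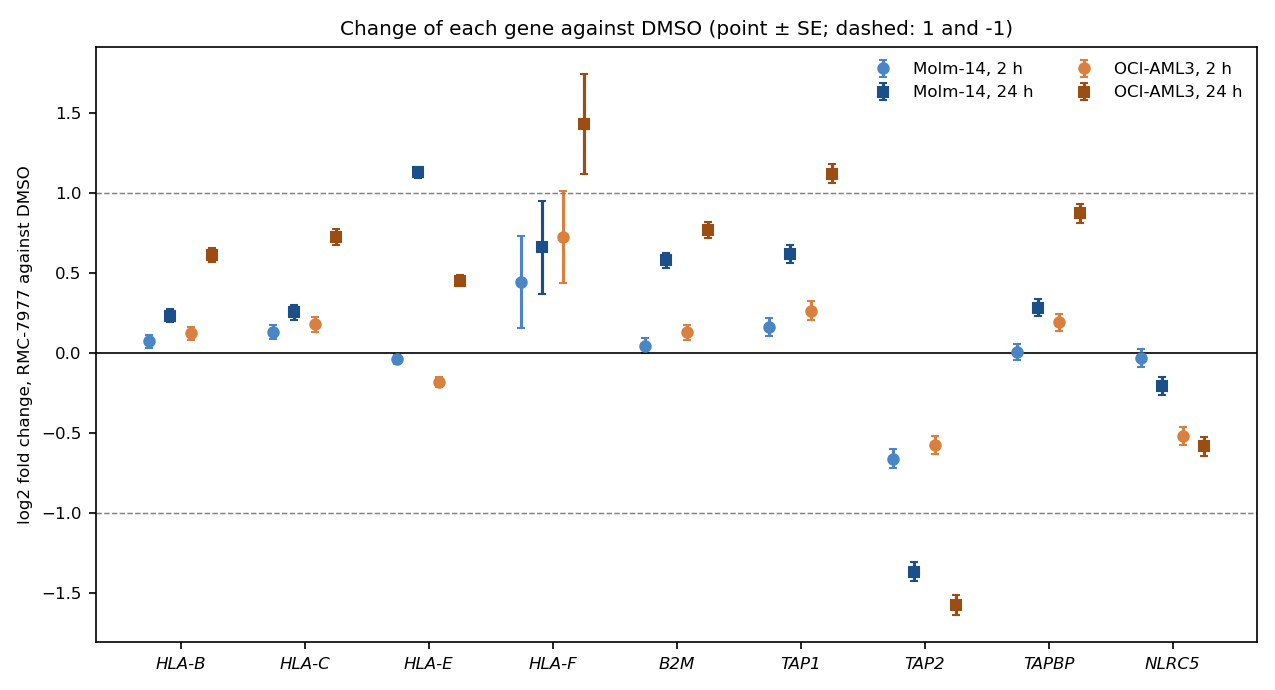
Log2 fold change of each of the 9 genes against DMSO (points) with its SE (bars) at 2 h (circles) and 24 h (squares) in Molm-14 (blue) and OCI-AML3 (orange); dashed lines mark 1 and -1. TAP2 lies below -1 at 24 h in both lines, HLA-E lies above 1 in Molm-14 and TAP1 and HLA-F lie above 1 in OCI-AML3.

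Effective library sizes, recovered from the spacing of low values, ran from 15.4 to 22.4 M reads (median 18.4), and libraries of a group correlated at 0.9912 to 0.995 over all genes. Of 10 myeloid markers 9 were in the table, and KIT was not. Their summed level was 1080 to 1136 CPM in Molm-14 in DMSO, 1065 to 1193 at 2 h and 1617 to 1685 at 24 h. In OCI-AML3 it was 2118 to 2248, 2140 to 2298 and 6362 to 6800 CPM. The monocyte growth factor receptor gene CSF1R rose by 3.64 ± 0.06 in Molm-14 and 3.71 ± 0.06 in OCI-AML3 at 24 h. Of the 9 myeloid markers 3 rose and 1 fell in Molm-14 at 24 h, and 4 rose and 1 fell in OCI-AML3. The shares of all genes that rose and fell were 11.4% and 6.57% in Molm-14 and 18.4% and 17.1% in OCI-AML3. CSF1R, PTPRC and ITGAM rose in both lines, LYZ rose in OCI-AML3 (574 to 3790 CPM in the group means, most of the sum), MPO fell by 2.15 in Molm-14 and CD14 fell by 3.56 in OCI-AML3 (3.40 to 0.321 CPM). The part of these markers in the changes of the class I genes was not tested. Few markers of other lineages were in the table, with 1 of 6 for T and natural killer cells (NKG7), 1 of 4 for B cells (PAX5), 1 of 6 for erythroid cells and platelets (ITGA2B), 2 of 7 for epithelial and stromal cells (KRT18, COL1A2) and 2 of 6 for dendritic cells (CD86, ITGAX). PAX5 was at 18.0 to 22.2 CPM in Molm-14 in DMSO and at 0.309 to 0.429 CPM in OCI-AML3. In Molm-14 PAX5 fell at 24 h by 1.24 on the log2 scale. The dendritic pair summed to 7.33 to 8.04 CPM in Molm-14 in DMSO and 53.0 to 63.6 at 24 h, and to 10.7 to 13.8 and 42.7 to 44.7 CPM in OCI-AML3. In these bulk samples fewer cells of a type and less RNA per cell cannot be told apart.

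Per kilobase of the principal GENCODE transcript, the classical heavy chains and B2M stood far above the transport genes. In Molm-14 in DMSO the level was 653 CPM per kb for HLA-B, 519 for HLA-C, 370 for B2M and 96.9 for HLA-E. TAPBP followed at 65.1 CPM per kb, TAP2 at 27.2, TAP1 at 12.2, NLRC5 at 10.3 and HLA-F at 0.229. In OCI-AML3 in DMSO the level was 271 CPM per kb for HLA-B, 212 for B2M, 160 for HLA-C and 108 for HLA-E, and TAP2 stood at 38.9 against 5.85 for TAP1. After 24 h TAP1 stood at 18.7 CPM per kb and TAP2 at 10.6 in Molm-14, and in OCI-AML3 they stood at 12.7 and 13.1. The order of TAP1 and TAP2 depends on the transcript chosen. Over its longest transcript TAP2 stood at 12 CPM per kb in DMSO and 4.64 at 24 h in Molm-14, and at 17.1 and 5.74 in OCI-AML3, so that in Molm-14 TAP1 was not below it in DMSO.

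**Figure D2:**
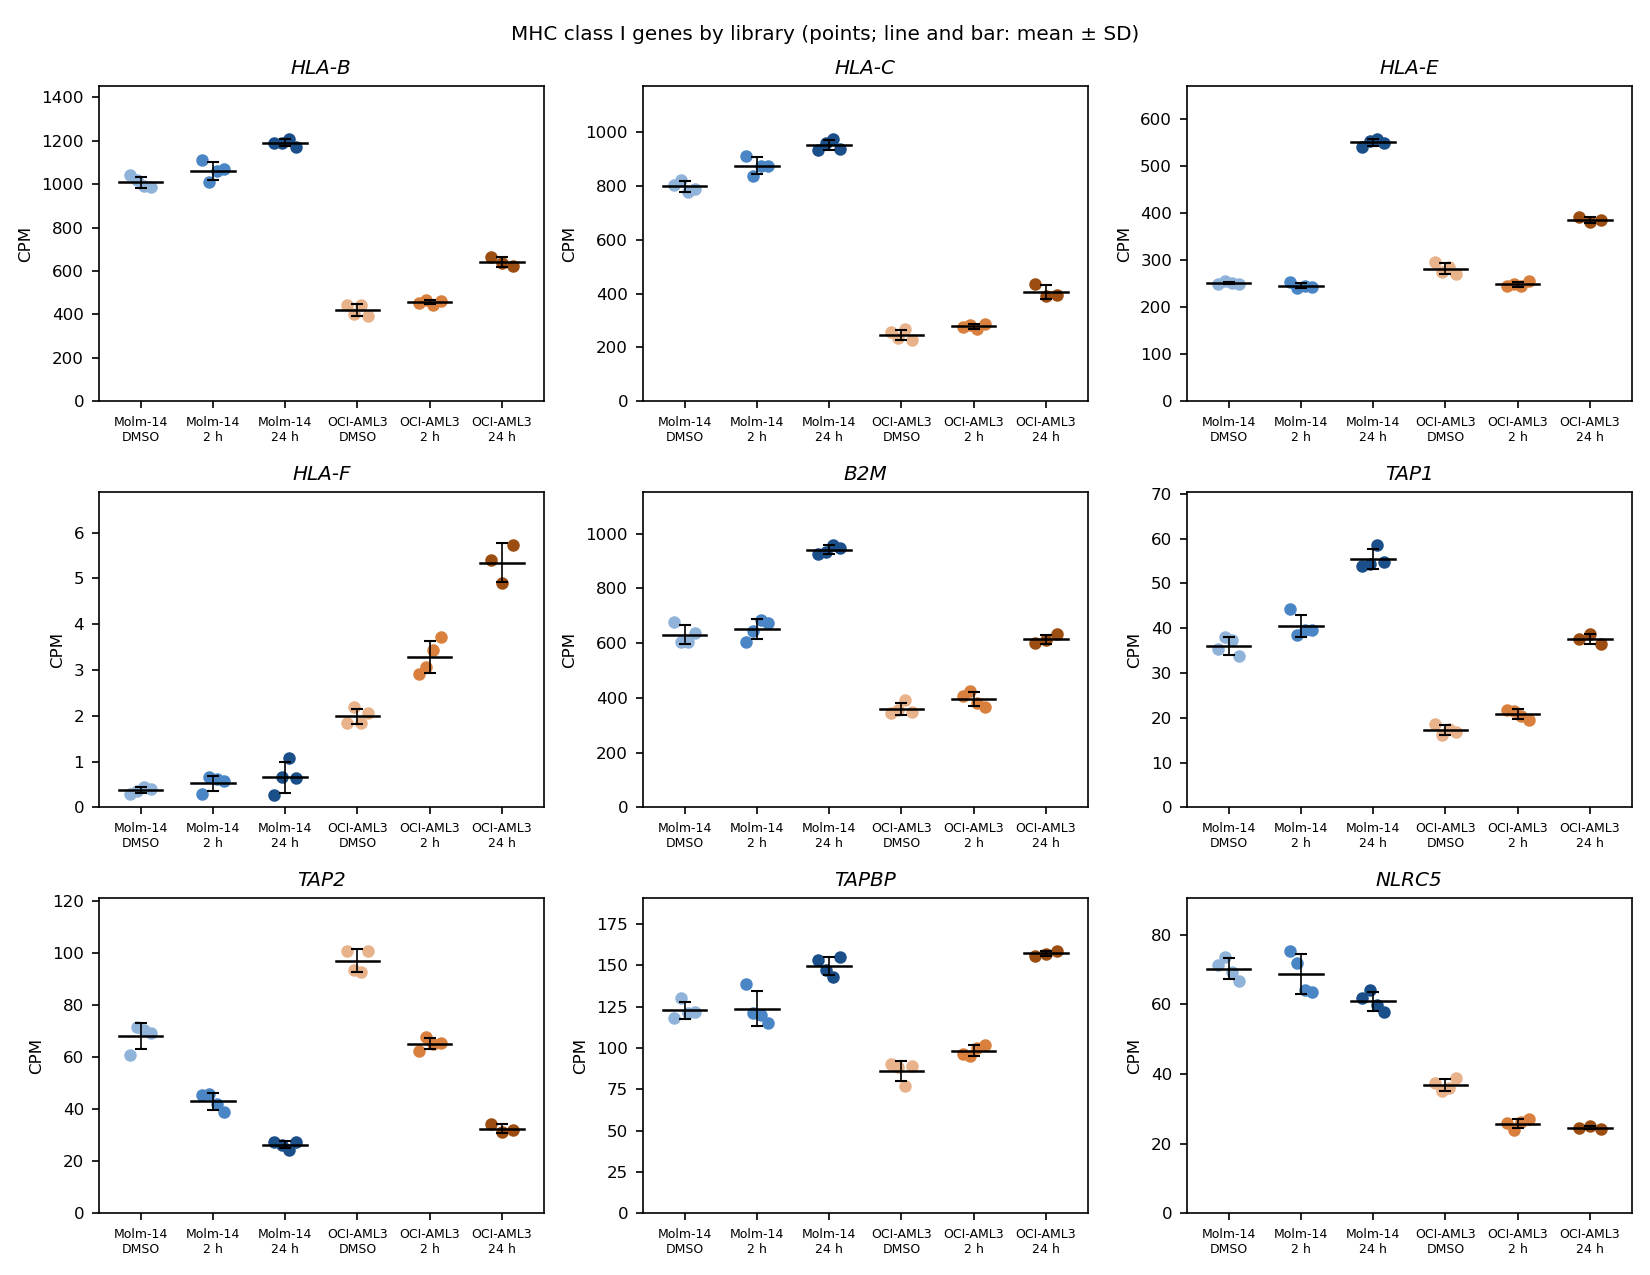
CPM of the 9 genes in each library (points) in the 6 groups, with the group mean (line) and SD (bar); n = 4 libraries per group and 3 for OCI-AML3 at 24 h, and each axis starts at 0. TAP2 steps down from DMSO to 2 h to 24 h in both lines with no overlap between the groups of a line, and HLA-E in Molm-14 stands at 541 to 559 CPM at 24 h against 249 to 255 in DMSO.

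HLA-E (chr6:30489467-30494205, plus strand, hg38) was the heavy chain with the largest change in Molm-14 that passed the test. Its Molm-14 libraries held 249, 255, 252 and 250 CPM in DMSO, 253, 241, 245 and 243 at 2 h, and 541, 554, 559 and 549 at 24 h. The 24 h libraries were all above the others, and the 2 h and DMSO libraries overlapped. HLA-E rose 2.19-fold at 24 h (log2 1.13 ± 0.03, limma adjusted p = 5.05e-23). Its change at 2 h was -0.04 ± 0.03 (limma adjusted p = 0.367).

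In OCI-AML3 HLA-E held 296, 276, 286 and 271 CPM in DMSO, 245, 249, 246 and 256 at 2 h, and 393, 381 and 385 at 24 h. The 2 h libraries were all below DMSO and the 24 h libraries all above it. The change was -0.18 ± 0.03 at 2 h (limma adjusted p = 2.49e-05) and 0.45 ± 0.04 at 24 h (limma adjusted p = 8.08e-13), and neither reached a log2 change of 1. Over the 6 groups the order of HLA-E was Molm-14 at 24 h, OCI-AML3 at 24 h, OCI-AML3 in DMSO, and then Molm-14 in DMSO, OCI-AML3 at 2 h and Molm-14 at 2 h, whose libraries overlapped. The change at 24 h was smaller in OCI-AML3 than in Molm-14 by 0.68 ± 0.05 on the log2 scale (limma adjusted p = 4.23e-13).

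HLA-B (gene model chr6:31269491-31357188, minus strand) and HLA-C (chr6:31268749-31272130, minus strand) had higher levels in Molm-14 than in OCI-AML3. HLA-B held 1040, 1020, 991 and 987 CPM in Molm-14 in DMSO and 442, 403, 443 and 392 in OCI-AML3. At 2 h it held 1110, 1010, 1060 and 1070 CPM in Molm-14 and 454, 467, 444 and 462 in OCI-AML3. At 24 h it held 1190, 1190, 1210 and 1170 CPM in Molm-14 and 664, 638 and 621 in OCI-AML3. The 24 h libraries stood above all DMSO libraries in each line, with a change of 0.23 ± 0.04 in Molm-14 (limma adjusted p = 3.48e-06) and 0.61 ± 0.04 in OCI-AML3 (limma adjusted p = 2.82e-14).

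HLA-C held 802, 822, 777 and 788 CPM in Molm-14 in DMSO, 911, 835, 875 and 875 at 2 h, and 932, 958, 975 and 938 at 24 h. In OCI-AML3 it held 256, 235, 267 and 226 CPM in DMSO, 276, 282, 268 and 287 at 2 h, and 437, 391 and 393 at 24 h. The DMSO, 2 h and 24 h libraries did not overlap in either line. The change at 24 h was 0.25 ± 0.04 in Molm-14 (limma adjusted p = 7.16e-06) and 0.73 ± 0.05 in OCI-AML3 (limma adjusted p = 1.12e-14), below the fold asked of a call. HLA-B and HLA-C are polymorphic genes of similar sequence, and the HLA-B gene model overlaps part of HLA-C in GENCODE 29. Reads can be split between the genes, so the values of each gene and the differences between lines are uncertain.

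HLA-F (chr6:29722775-29738528, plus strand) was the lowest of the 9 genes. In Molm-14 it held 0.289, 0.365, 0.442 and 0.402 CPM in DMSO, 0.287, 0.653, 0.610 and 0.565 at 2 h, and 0.261, 0.660, 1.08 and 0.630 at 24 h. These values rest on 3 to 20 reads per library, the groups overlapped, and the change at 24 h was 0.66 ± 0.29 (limma adjusted p = 0.0397). Without the first 24 h library the change was 1.05 (limma adjusted p = 0.00043) and passed as a rise, without the third it was 0.37 (limma adjusted p = 0.244), and with a pseudocount of 1 CPM it was 0.25 (limma adjusted p = 0.0452).

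In OCI-AML3 HLA-F held 1.84, 2.19, 1.85 and 2.06 CPM in DMSO, 2.92, 3.07, 3.44 and 3.71 at 2 h, and 5.40, 4.90 and 5.74 at 24 h, from 33 to 102 reads per library. The groups did not overlap and followed the order DMSO, 2 h, 24 h. HLA-F rose 2.70-fold at 24 h (log2 1.43 ± 0.31, limma adjusted p = 0.000121), and its change at 2 h was 0.73 ± 0.29 (limma adjusted p = 0.0308, and up to 0.0714 with 1 library left out). In GENCODE 29 HLA-F overlaps the antisense gene HLA-F-AS1, and the strand setting of the counting is not given in the sources used here, so reads of the pair cannot be told apart.

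B2M (chr15:44711487-44718877, plus strand), the light chain of all these molecules, was higher at 24 h in both lines without reaching the fold of a call. In Molm-14 it held 676, 604, 605 and 637 CPM in DMSO, 605, 645, 683 and 674 at 2 h, and 926, 931, 960 and 949 at 24 h. In OCI-AML3 it held 343, 357, 392 and 350 CPM in DMSO, 406, 424, 380 and 368 at 2 h, and 600, 610 and 632 at 24 h. The 24 h libraries stood apart in each line, and the 2 h and DMSO libraries overlapped. The change at 24 h was 0.58 ± 0.05 in Molm-14 (limma adjusted p = 2.77e-12) and 0.77 ± 0.05 in OCI-AML3 (limma adjusted p = 1.35e-14).

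TAP2 (chr6:32821833-32838780, minus strand) was lower at each later time in both lines. In Molm-14 it held 60.7, 71.6, 70.6 and 69.2 CPM in DMSO, 45.5, 45.9, 42.2 and 38.9 at 2 h, and 27.3, 26.3, 24.5 and 27.4 at 24 h. In OCI-AML3 it held 101, 93.7, 92.7 and 101 CPM in DMSO, 62.4, 67.9, 65.1 and 65.5 at 2 h, and 34.5, 31.3 and 31.9 at 24 h. No library of one group overlapped another group of its line.

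TAP2 fell at 24 h to 0.388 of its DMSO level in Molm-14 (log2 -1.37 ± 0.06, limma adjusted p = 3.66e-19) and to 0.335 in OCI-AML3 (log2 -1.58 ± 0.06, limma adjusted p = 2.63e-20). At 2 h the change was already -0.66 ± 0.06 in Molm-14 (limma adjusted p = 3.42e-11) and -0.57 ± 0.06 in OCI-AML3 (limma adjusted p = 7.15e-10), short of the fold of a call. Over the 6 groups the order was OCI-AML3 in DMSO, then Molm-14 in DMSO and OCI-AML3 at 2 h, which overlapped, then Molm-14 at 2 h, OCI-AML3 at 24 h and Molm-14 at 24 h. A read-through transcript with the neighbouring class II gene HLA-DOB overlaps TAP2. HLA-DOB was at 23.6, 11.4 and 17.8 CPM in Molm-14 in DMSO, at 2 h and at 24 h, and at 1.35, 0.813 and 0.958 CPM in OCI-AML3, so in OCI-AML3 it was far below the level of TAP2.

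TAP1 (chr6:32845209-32853978, minus strand), the partner of TAP2 in the transporter, went the other way. In Molm-14 it held 35.3, 38.1, 37.3 and 33.7 CPM in DMSO, 44.2, 38.6, 39.6 and 39.5 at 2 h, and 53.9, 54.4, 58.7 and 54.8 at 24 h. In OCI-AML3 it held 18.6, 16.1, 17.5 and 16.9 CPM in DMSO, 21.7, 21.6, 20.5 and 19.4 at 2 h, and 37.6, 38.8 and 36.4 at 24 h. The groups of a line did not overlap, and OCI-AML3 at 24 h overlapped Molm-14 in DMSO and at 2 h.

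TAP1 rose 2.18-fold in OCI-AML3 at 24 h (log2 1.12 ± 0.06, limma adjusted p = 1.14e-16). In Molm-14 its change at 24 h was 0.62 ± 0.06 (limma adjusted p = 3.99e-11). The antisense gene PSMB8-AS1 overlaps the end of TAP1 and was at 10.2, 16.4 and 21.3 CPM in OCI-AML3 in DMSO, at 2 h and at 24 h. PSMB8-AS1 rose by 1.06 ± 0.07 on the log2 scale in OCI-AML3 at 24 h, and its part in the value of TAP1 was not tested. TAP1 is known to share a promoter region with the immunoproteasome gene PSMB9, which is transcribed in the opposite direction. The change of PSMB9 at 24 h was -0.10 ± 0.06 in Molm-14 and 0.03 ± 0.07 in OCI-AML3, so the difference of TAP1 from PSMB9 within a library went from 0.37 ± 0.12 to 1.08 ± 0.06 in Molm-14 (SD, log2 CPM) and from -0.25 ± 0.14 to 0.84 ± 0.08 in OCI-AML3.

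TAPBP (chr6:33299694-33314387, minus strand) held 118, 130, 121 and 122 CPM in Molm-14 in DMSO, 139, 121, 120 and 115 at 2 h, and 153, 147, 143 and 155 at 24 h. In OCI-AML3 it held 90.1, 88.6, 76.8 and 89.1 CPM in DMSO, 96.4, 94.9, 100 and 102 at 2 h, and 156, 157 and 159 at 24 h. The 24 h libraries were above the rest in each line. The change at 24 h was 0.28 ± 0.05 in Molm-14 (limma adjusted p = 1.62e-05) and 0.87 ± 0.06 in OCI-AML3 (limma adjusted p = 6.63e-15), and the OCI-AML3 change passed 1 under 2 other scalings of the libraries (1.05 and 1.03).

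NLRC5 (chr16:56989485-57083531, plus strand), the transactivator of class I genes, had negative changes that stayed under the fold of a call. In Molm-14 it held 71.4, 73.7, 69.3 and 66.7 CPM in DMSO, 75.5, 71.9, 64.3 and 63.7 at 2 h, and 61.8, 64.1, 59.9 and 57.8 at 24 h. In OCI-AML3 it held 37.5, 35.1, 35.9 and 38.9 CPM in DMSO, 25.9, 23.9, 26.1 and 27.2 at 2 h, and 24.4, 25.0 and 24.3 at 24 h. The OCI-AML3 libraries with drug were all below DMSO and overlapped each other between 2 and 24 h. The change in OCI-AML3 was -0.52 ± 0.06 at 2 h (limma adjusted p = 2.3e-09) and -0.58 ± 0.06 at 24 h (limma adjusted p = 2.76e-10), and in Molm-14 it was -0.03 ± 0.06 and -0.21 ± 0.06 (limma adjusted p = 0.65 and 0.00132). The 24 h change in Molm-14 was -0.11 with library totals (limma adjusted p = 0.0909) and -0.10 with median-of-ratios scaling (limma adjusted p = 0.113).

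TAP1, HLA-E and HLA-B were each set against TAP2 within each library, as differences of log2 CPM with no test. TAP1 minus TAP2 was -0.91 ± 0.11 in Molm-14 in DMSO (SD, n = 4), -0.09 ± 0.12 at 2 h and 1.07 ± 0.13 at 24 h. In OCI-AML3 it was -2.49 ± 0.08 in DMSO, -1.65 ± 0.10 at 2 h and 0.21 ± 0.09 at 24 h (n = 3). TAP1 thus passed TAP2 in CPM by 24 h in every library of both lines. HLA-E minus TAP2 went from 1.89 ± 0.10 to 2.51 ± 0.11 and 4.39 ± 0.09 in Molm-14, and from 1.54 ± 0.09 to 1.93 ± 0.05 and 3.57 ± 0.05 in OCI-AML3. HLA-B minus TAP2 went from 3.89 ± 0.13 to 4.63 ± 0.13 and 5.49 ± 0.09 in Molm-14, and from 2.11 ± 0.12 to 2.81 ± 0.04 and 4.30 ± 0.04 in OCI-AML3. These differences hold for TAP2, the transport gene that fell, and not for peptide transport as a whole. The change at 24 h in Molm-14 and OCI-AML3 was 0.23 and 0.61 for HLA-B and 1.13 and 0.45 for HLA-E. It was 0.62 and 1.12 for TAP1 and 0.28 and 0.87 for TAPBP.

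Among the heavy chains the balance of HLA-B and HLA-E moved differently in the lines. HLA-B minus HLA-E went from 2.00 ± 0.04 in DMSO to 2.11 ± 0.03 at 2 h and 1.11 ± 0.02 at 24 h in Molm-14. The OCI-AML3 means were 0.57 ± 0.04, 0.88 ± 0.03 and 0.73 ± 0.04 in that order. HLA-B minus HLA-C stayed between 0.28 and 0.34 in the group means of Molm-14 and between 0.66 and 0.77 in those of OCI-AML3. The changes of the 4 heavy chains at 24 h ran from 0.23 to 1.13 in Molm-14 (median 0.46) and from 0.45 to 1.43 in OCI-AML3 (median 0.67). Those of TAP1, TAP2 and TAPBP ran from -1.37 to 0.62 (median 0.28) and from -1.58 to 1.12 (median 0.87).

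**Figure D3:**
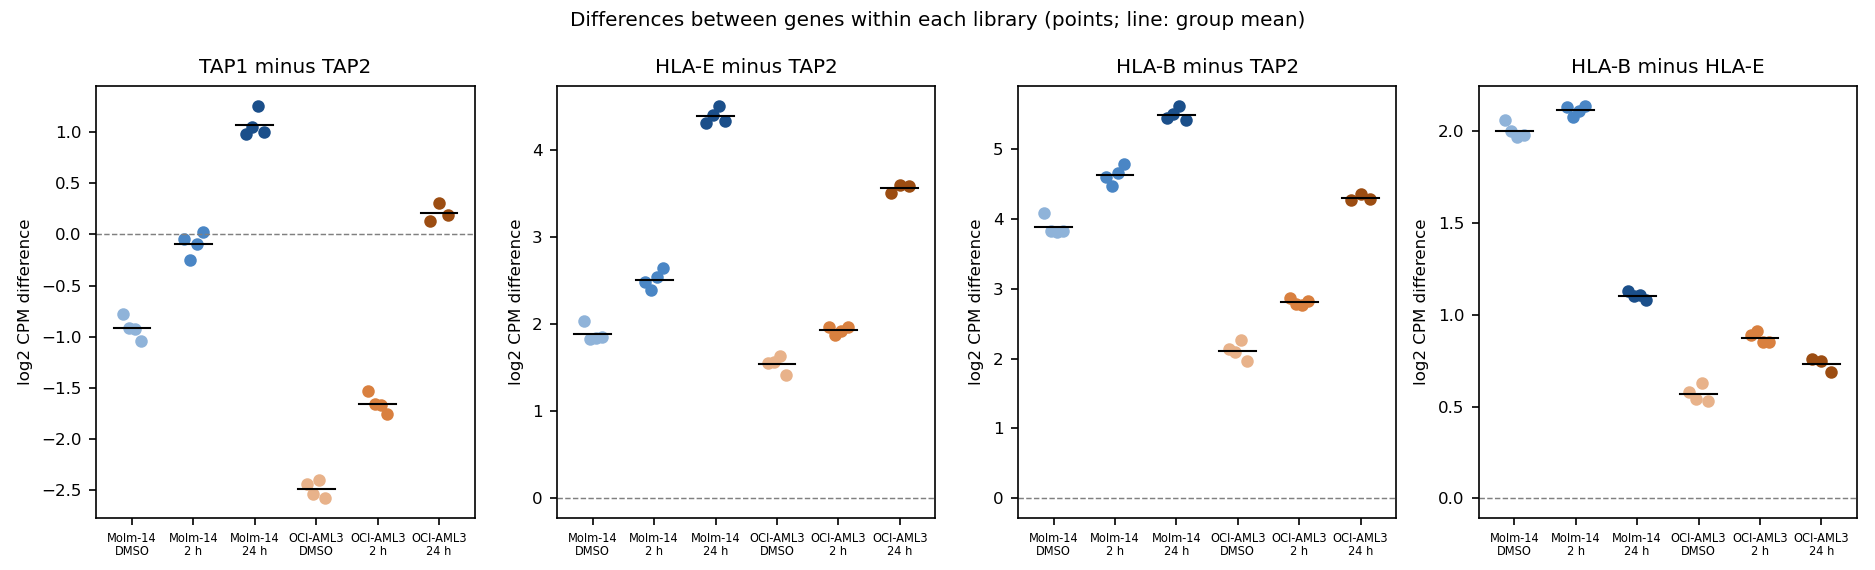
Differences of log2 CPM between pairs of genes within each library (points) in the 6 groups, with the group mean (line) and a dashed line at 0. TAP1 minus TAP2 passes from below 0 in DMSO to above 0 at 24 h in every library of both lines, and HLA-B minus HLA-E is lower at 24 h than in DMSO in Molm-14 and higher in OCI-AML3.

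From 2 to 24 h HLA-E rose in Molm-14 by 1.17 ± 0.03 (limma adjusted p = 4.88e-23), 1 of 9 called higher where 7.25% of all genes were (10.6% in either direction). In OCI-AML3 TAP2 fell by 1.00 on the log2 scale over that time (SE 0.06, limma adjusted p = 4.15e-15), 1 of 9 called lower where 10.9% of all genes were (22.6% in either direction). That value sits at the fold of a call, which it missed under library totals (-0.90), median-of-ratios scaling (-0.89) and a pseudocount of 1 CPM (-0.98), and without OCI-AML3 library 2 at 2 h (-0.98), library 2 at 24 h (-0.98) or library 4 at 24 h (-0.99).

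The responses of the lines differed at 24 h for 8 of the 9 genes by the adjusted p, where 65.4% of all genes differed, and limma called 0 of 9 with the fold, where 17.8% of all genes were called. At an unadjusted p below 0.05 the count was also 8, where 68.2% of all genes passed, and voom called 0. Values are the OCI-AML3 change minus the Molm-14 change. The difference was 0.59 ± 0.08 for TAPBP, 0.50 ± 0.08 for TAP1, 0.47 ± 0.07 for HLA-C, 0.38 ± 0.06 for HLA-B and 0.19 ± 0.07 for B2M. It was -0.68 ± 0.05 for HLA-E, -0.38 ± 0.08 for NLRC5 and -0.21 ± 0.09 for TAP2, so that HLA-E changed more in Molm-14 and the other chains that passed changed more in OCI-AML3. For HLA-F the difference was 0.77 with a 95% interval from -0.10 to 1.64, and it was 1.07 without Molm-14 library 3 at 24 h (limma adjusted p = 0.022) and 0.38 without library 1 (limma adjusted p = 0.35). It passed at 0.84 with a pseudocount of 1 CPM (limma adjusted p = 4.89e-05) and at 0.86 with a replicate block (limma adjusted p = 0.0421). The difference of TAP2 missed the threshold with library totals (-0.14, limma adjusted p = 0.172) and median-of-ratios scaling (-0.16, limma adjusted p = 0.106), and without Molm-14 DMSO library 1, Molm-14 24 h library 1 or 4, OCI-AML3 DMSO library 1 or 4, or OCI-AML3 24 h library 2 or 4. That of B2M missed it without Molm-14 DMSO library 1 (0.16, limma adjusted p = 0.0529) or OCI-AML3 24 h library 4 (0.17, limma adjusted p = 0.0537). The other 6 passed in every alternative run.

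At 2 h the responses differed by the adjusted p for 3 of the 9, where 38.7% of all genes differed, and limma called 0 with the fold, where 5.64% were called. At an unadjusted p below 0.05 there were 3, where 46.6% of all genes passed, and voom called 0. The difference was -0.49 ± 0.08 for NLRC5, -0.14 ± 0.05 for HLA-E and 0.19 ± 0.07 for TAPBP. HLA-E missed the adjusted p with library totals (-0.10, limma adjusted p = 0.0742). TAPBP missed it without the trend and robust options (limma adjusted p = 0.0748), in a fit of its own groups (limma adjusted p = 0.0751), and, at adjusted p up to 0.135, without library 2, 3 or 4 of Molm-14 in DMSO or at 2 h, OCI-AML3 DMSO library 3, or OCI-AML3 2 h library 1, 3 or 4. NLRC5 passed in every alternative run. For TAP2 it was 0.09 with a 95% interval from -0.08 to 0.25, and for TAP1 it was 0.10 with an interval from -0.06 to 0.27.

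In DMSO the lines differed in class I levels before any drug, with 1 of 9 higher and 3 lower in OCI-AML3, where 17.9% of all genes were higher and 12.2% lower (30.2% in all). HLA-C was lower by 1.70 (log2 -1.70 ± 0.04), HLA-B by 1.27 (log2 -1.27 ± 0.04) and TAP1 by 1.06 (log2 -1.06 ± 0.06), and HLA-F was higher by 2.42 ± 0.29, or by 1.12 with a pseudocount of 1 CPM. The differences of NLRC5 (-0.93 ± 0.06), B2M (-0.81 ± 0.05), TAPBP (-0.52 ± 0.05), TAP2 (0.52 ± 0.06) and HLA-E (0.17 ± 0.03) did not reach the fold of a call. After 24 h of drug HLA-B in OCI-AML3 (621 to 664 CPM) was still below HLA-B in Molm-14 in DMSO (987 to 1040 CPM), while B2M (600 to 632 CPM) overlapped it (604 to 676 CPM).

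Other genes of the pathway were taken from 11 lists, with 81 genes in the table, of which 11 rose and 5 fell in Molm-14 at 24 h and 13 rose and 12 fell in OCI-AML3. At 2 h 4 rose and 2 fell in Molm-14, and 4 rose and 1 fell in OCI-AML3. The shares of all genes that rose and fell were 11.4% and 6.57% in Molm-14 and 18.4% and 17.1% in OCI-AML3 at 24 h, and 4.3% and 2.98% in Molm-14 and 3.23% and 3.35% in OCI-AML3 at 2 h, so the totals of the lists are near them. The counts of the single lists, which hold 3 to 14 measured genes, are to be read against the same shares. Of 13 interferon signalling genes 4 rose at 24 h in Molm-14 (11.4% of all genes) and 5 in OCI-AML3 (18.4% of all genes), and none fell, with a list median of 0.78 and 0.81. IRF9, a DNA-binding factor of the type I interferon response, rose by 1.85 ± 0.06 at 2 h and 1.78 ± 0.06 at 24 h in Molm-14, and by 1.07 ± 0.06 and 1.81 ± 0.07 in OCI-AML3. STAT2, a partner of IRF9, rose at 24 h by 1.66 ± 0.05 in Molm-14 and 3.50 ± 0.05 in OCI-AML3. JAK2 rose by 1.09 ± 0.06 and 1.96 ± 0.07, and the feedback inhibitor SOCS1 rose by 1.92 ± 0.15 in Molm-14.

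The proteasome and the folding factors of the endoplasmic reticulum were counted next. Of 8 genes of the loading complex and folding 2 fell in Molm-14 (6.57% of all genes) and 3 in OCI-AML3 (17.1% of all genes) at 24 h, and none rose. The chaperone HSPA5 fell by 1.74 on the log2 scale in Molm-14 and by 2.47 in OCI-AML3. Calreticulin (CALR), which holds new heavy chains in the loading complex, fell by 1.16 and by 2.32, and PDIA3, the disulphide isomerase beside it, fell by 1.30 in OCI-AML3. Of 5 immunoproteasome and activator genes none rose at 24 h, and the activator subunit PSME2 fell by 1.00 in Molm-14 and by 1.62 in OCI-AML3. The Molm-14 value of PSME2 missed the call under both other scalings (-0.90 and -0.89), at a pseudocount of 1 CPM (-0.99), and when DMSO library 2 (-0.99) or 24 h library 1 (-0.98) was left out. All 3 constitutive catalytic subunits fell in OCI-AML3 at 24 h, with PSMB6 at -1.37 ± 0.06, PSMB7 at -1.24 ± 0.05 and PSMB5 at -1.04 ± 0.06. PSMB5 missed the call under both other scalings (-0.87 and -0.88) and without 24 h library 4 (-0.98). In Molm-14 0 of the 3 were called, with a list median of -0.74 and all 3 lower by the adjusted p alone, where 38.6% of all genes were.

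Of 9 peptide-trimming enzymes 1 rose and 1 fell in each line at 24 h, near the shares of all genes. THOP1, a cytosolic peptidase that destroys class I peptides, fell by 1.05 in Molm-14 and fell by 2.62 in OCI-AML3, and the Molm-14 fall missed the call under both other scalings (-0.95 and -0.94). The aminopeptidase NPEPPS rose by 1.40 ± 0.04 in Molm-14, and ERAP2, which trims peptides in the endoplasmic reticulum, rose by 1.03 ± 0.07 in OCI-AML3. ERAP2 missed the call with a pseudocount of 1 CPM (0.99) and without 24 h library 2 (1.00). Of 14 factors of class I promoters CIITA, the class II transactivator related to NLRC5, rose at 24 h by 1.14 ± 0.10 in Molm-14 and 2.39 ± 0.11 in OCI-AML3. NFYA, a subunit of the factor that binds CCAAT, fell by 1.14 in OCI-AML3, and it missed the call under both other scalings (-0.96 and -0.98). Of 6 repressors of class I, DNMT1 fell by 1.58 and EZH2, the polycomb methyltransferase, by 1.30 in OCI-AML3 at 24 h. In Molm-14 at 24 h 0 of the 6 were called by limma, and all 6 were lower by the adjusted p alone, where 38.6% of all genes were. In OCI-AML3 at 24 h 5 of the 6 were lower and 1 was higher by the adjusted p alone, where 42% and 42.4% of all genes were.

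**Figure D4:**
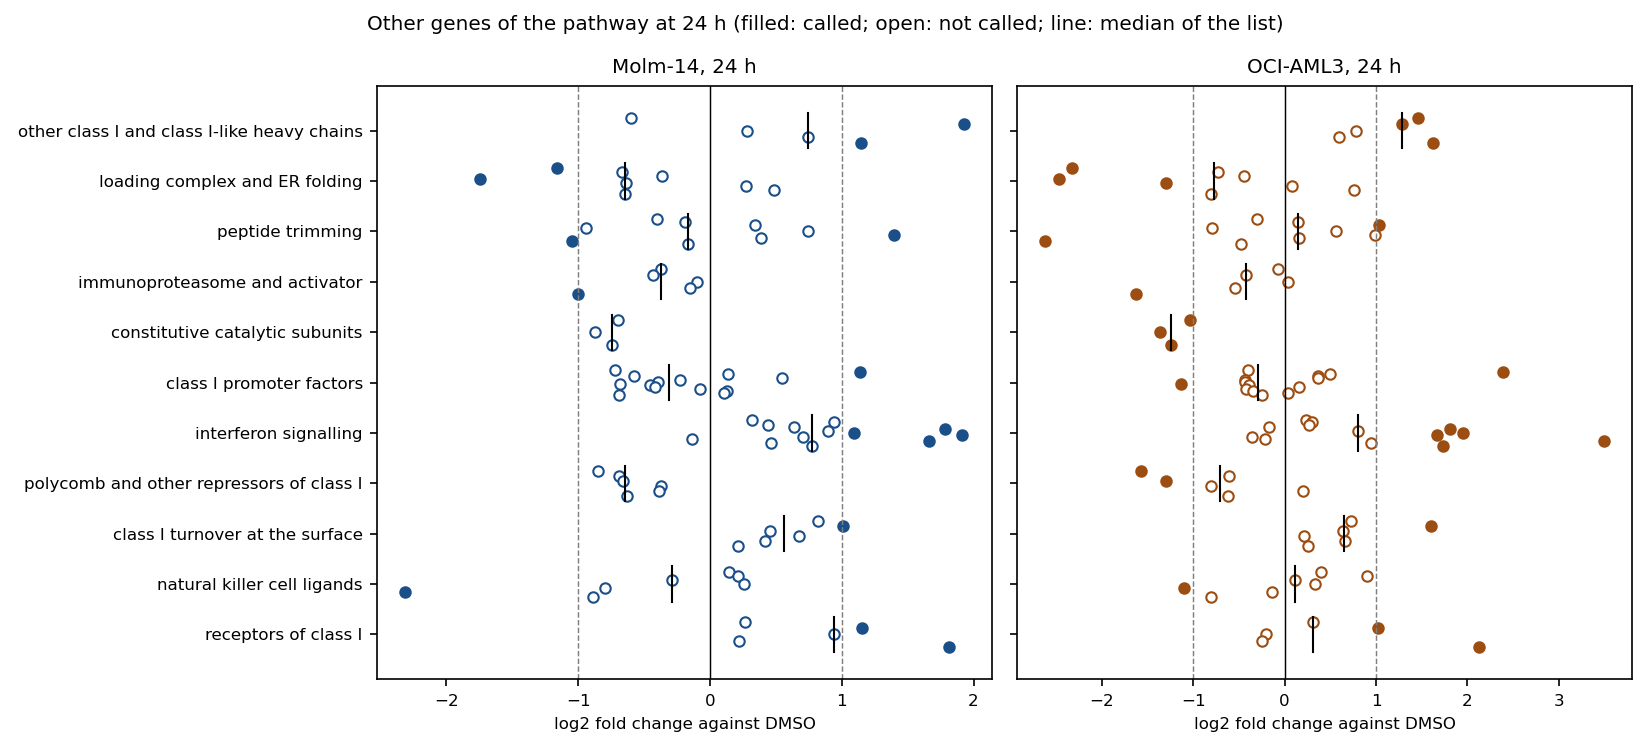
Log2 fold change at 24 h against DMSO of the genes of 11 pathway lists in Molm-14 (left) and OCI-AML3 (right); filled points were called, open points were not, short lines mark the list medians and dashed lines 1 and -1. The interferon signalling list has its called genes above 1 in both lines, and the folding and immunoproteasome lists have theirs below -1. The constitutive proteasome list has its called genes below -1 in OCI-AML3 and none called in Molm-14.

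MARCHF9, a ubiquitin ligase that removes class I from the surface, rose in all 4 comparisons against DMSO, by 1.67 ± 0.09 at 2 h and 1.01 ± 0.09 at 24 h in Molm-14 and by 1.15 ± 0.09 and 1.60 ± 0.10 in OCI-AML3. It was the called gene among the 6 measured genes of class I turnover, and its 24 h value in Molm-14 missed the call with a pseudocount of 1 CPM (0.98) and without 24 h library 1 (0.98). Of 5 measured class I-like chains 2 rose at 24 h in Molm-14 and 3 in OCI-AML3. FCGRT, the heavy chain of the neonatal Fc receptor, rose by 1.93 ± 0.08 in Molm-14 and 1.28 ± 0.08 in OCI-AML3, and MR1, which presents vitamin B metabolites, rose by 1.15 ± 0.06 and 1.63 ± 0.07. The lipid-presenting chain CD1D fell at 2 h in Molm-14 by 1.94 and rose at 24 h in OCI-AML3 by 1.46 ± 0.23. FCGRT, MR1 and CD1D pair with B2M as the classical chains do.

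Of 7 measured ligands of natural killer cell receptors, 1 fell in each comparison against DMSO and none rose. By the adjusted p alone 2 were higher and 4 lower in Molm-14 at 24 h, where 37.7% and 38.6% of all genes were. In OCI-AML3 at 24 h 3 were higher and 2 lower, where 42.4% and 42% of all genes were. The list medians at 24 h were -0.29 in Molm-14 and 0.11 in OCI-AML3. PVR, a ligand of the receptors DNAM-1 and TIGIT, fell at 2 h by 1.42 in Molm-14 and by 1.25 in OCI-AML3, and at 24 h by 1.10 in OCI-AML3, where it missed the call under both other scalings (-0.93 and -0.94). ULBP1, a ligand of NKG2D, fell by 2.31 in Molm-14 at 24 h. Of 5 measured class I receptors 2 rose at 24 h in each line. LILRB2, an inhibitory receptor of myeloid cells, rose by 1.81 ± 0.14 in Molm-14 and 2.13 ± 0.15 in OCI-AML3, and LILRA1 rose by 1.15 ± 0.15 and 1.02 ± 0.16. LILRA1 missed the call with a pseudocount of 1 CPM (0.86 in Molm-14 and 0.94 in OCI-AML3), and in OCI-AML3 also without DMSO library 4 (0.99) or 24 h library 4 (0.98).

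The genes most like each called gene were found by Pearson's r of log2 CPM over the 23 libraries after the mean of each line was subtracted, among 10923 genes with a mean of at least 5 CPM. These values are a description, since the points share libraries and the 6 groups. TAP2 was most like the nucleoside transporter SLC29A1 (r = 0.995) and UTP20 (0.989) and BMS1 (0.988), which act in ribosome assembly, and 1488 genes had r above 0.9. SLC29A1 fell by 1.58 in Molm-14 and by 1.91 in OCI-AML3 at 24 h, and UTP20 fell by 1.57 and by 2.04. HLA-E was most like PREX1 (0.993), NCF4 (0.990) and FCGR2B (0.989), genes of phagocyte signalling, the oxidase and an Fc receptor, and 257 genes had r above 0.9. FCGR2B rose by 5.65 ± 0.07 in Molm-14 and 3.15 ± 0.08 in OCI-AML3 at 24 h. Of the genes most like TAP1, BLVRB stood at 0.986 and DNASE1 at 0.984, with 856 genes above 0.9. HLA-F, with few reads, was most like HINT3 (0.835), EXD2 (0.830) and CD9 (0.807), with 0 genes above 0.9.

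Among the 9 genes themselves, by the same measure over 23 libraries, TAP1 and TAP2 stood at r = -0.94 and B2M and TAP2 at -0.93. TAP1 stood at 0.97 with HLA-B, 0.95 with HLA-C and 0.94 with both B2M and TAPBP. HLA-E was less close to HLA-B (0.65) and HLA-C (0.58) than to B2M (0.84). NLRC5 stood at 0.75 with TAP2 and between -0.70 and -0.38 with the other 7 genes.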

How the data were processed

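The authors deposited log2 CPM per gene symbol, scaled to effective library sizes, for 23 libraries in 6 groups. The submitters' processing notes list Trimmomatic 0.36, STAR 2.7.8a, RSEM 1.3.3, edgeR 3.24.3, limma 3.38.3 and MultiQC 1.28 with hg38. The strand setting is not given in the sources used here, nor is the filter on low values. The lowest log2 CPM was -3.26 (0.105 CPM), so changes of genes with few reads are understated. Between 75.4% and 82.8% of values of at most 20 read equivalents were whole to within 0.05.

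One limma 3.58.1 fit (R 4.3.3, trend and robust options) of 6 group means over all 23 libraries gave 9 comparisons, adjusted by Benjamini-Hochberg over 13033 genes. The fit was tested on simulated data. The 9 genes and all lists were chosen with earlier results of these data known. Named were all 9 genes, up to 4 called genes per list by smallest adjusted p, and the 3 genes most like each gene called against DMSO. Alternatives were 2 other scalings, a pseudocount of 1 CPM, a filter at a mean of 5 CPM, no trend or robust options, fits of a comparison's own groups, voom on read equivalents, a replicate block, no minimum fold, and leaving out each library. The third OCI-AML3 library at 24 h was not analysed here. A gene that the rule for similar genes names is not reported here.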

Additional observations from a re-analysis of the deposited data

Results flagged for a closer look

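TAPBP in the third OCI-AML3 DMSO library was at 6.26 log2 CPM, below the other 3 libraries of its group (6.47 to 6.49), with a gap of 0.90 of the group's range. Chance sets apart about 1 in 20 groups in this way.

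The difference in response between the lines (OCI-AML3 minus Molm-14, log2) passed an adjusted p of 0.05 in limma for 3 genes at 2 h. It was -0.14 for HLA-E, -0.49 for NLRC5 and 0.19 for TAPBP. It passed for 8 genes at 24 h, at 0.19 for B2M, 0.38 for HLA-B, 0.47 for HLA-C, -0.68 for HLA-E, -0.38 for NLRC5, 0.50 for TAP1, -0.21 for TAP2 and 0.59 for TAPBP.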

How the results depend on the processing

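No called change of the 9 genes turned its direction under any alternative run. The call of HLA-E in Molm-14 at 24 h (1.12 to 1.24) and of TAP2 at 24 h (-1.42 to -1.26 in Molm-14, -1.62 to -1.40 in OCI-AML3) and TAP1 in OCI-AML3 (1.08 to 1.30) held in each. The filter at 5 CPM removed HLA-F, which left 1 gene of the 9 higher in OCI-AML3 at 24 h and 0 higher between the lines in DMSO. The count lower from 2 to 24 h in OCI-AML3 was 0 under library totals, median-of-ratios scaling and the pseudocount, and 0 to 1 with 1 library left out. Leaving out 1 library gave 1 to 2 higher in Molm-14 at 24 h and 0 to 1 higher in the 24 h difference between lines.

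With no minimum fold the counts higher and lower were 2 and 1 in Molm-14 and 6 and 3 in OCI-AML3 at 2 h, 7 and 2 in each line at 24 h, 6 and 2 in Molm-14 and 7 and 1 in OCI-AML3 from 2 to 24 h, 1 and 2 for the difference in response at 2 h, 5 and 3 at 24 h, and 3 and 6 between the lines in DMSO. With the fold kept, the count higher over all genes moved by more than 1.5 times in Molm-14 at 2 h (561 against 350 with the pseudocount). In OCI-AML3 at 2 h it also did (421 against 188 with the pseudocount and 228 with the filter). The filter moved it in OCI-AML3 at 24 h (2392 against 1545) and from 2 to 24 h (1516 against 917). It moved in the difference at 2 h (276 against 128 with the pseudocount and 145 with the filter). With the filter it moved in the difference at 24 h (1054 against 541) and in DMSO (2339 against 1537).

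Library totals moved the median of all genes by 0.10 in Molm-14 and 0.17 in OCI-AML3 at 24 h, and median-of-ratios scaling by 0.11 and 0.16. Replicate numbers did not pair the samples (55 same-numbered pairs, r from -0.35 to 0.26, and 8 of 23 libraries correlated best with their own number), and with a replicate block no call among the 9 genes changed, with TAP2 at -1.37 in Molm-14 and -1.59 in OCI-AML3 at 24 h. Depth limits HLA-F in Molm-14, at 3 to 20 reads per library. Small uncalled values of HLA-E, TAPBP and NLRC5 in Molm-14 at 2 h, of HLA-F in Molm-14 and of NLRC5 in OCI-AML3 from 2 to 24 h changed sign between settings.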
